A study of Mus musculus with 2 samples.

Results

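The genes described here encode intermediate filaments and the proteins that link, fold or anchor them, measured in the muscle coat (tunica muscularis) of the mouse jejunum. They are the 7 genes *Des*, *Synm*, *Vim*, *Nes*, *Plec*, *Cryab* and *Lmna*, taken by symbol from the 18159 genes of the table, and all 7 were above 0 FPKM in both libraries. FPKM, fragments scaled to transcript length and sequencing depth, is a level per length, so that levels of different genes can be compared. RNA came from P15 (15 days) mice on a C57BL/6 background and gave 1 mRNA library for each genotype. *Dnmt1*-WT mice carry Cre recombinase with eGFP under the *Myh11* promoter (smMHC Cre-eGFP/+), and *Dnmt1*-KO mice carry the same transgene with both floxed *Dnmt1* alleles deleted. Both samples carry the same strain label, with Dnmt1lox/lox alleles, and the same description, which is that of the knockout, so genotype was taken from the title and the genotype field. The strain label gives the *Dnmt1*-WT mice floxed alleles too. The *Myh11* promoter directs deletion to smooth muscle cells, those of vessels included, and other cells of the wall are not its target. Male and female mice contributed to each genotype, and how their RNA was combined is not given in the sources used here.

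With 1 library per genotype, no difference below could be set against a spread between replicates and none was tested. The number of reads behind a value was not analysed here, and values above 0 started at 0.03 FPKM in each library. *Dnmt1* itself was at 11.58 FPKM in *Dnmt1*-WT and 7.58 FPKM in *Dnmt1*-KO, a ratio of 0.655. The smooth muscle markers of a contractile gene list were abundant in both libraries, with a geometric mean of 1620 FPKM in *Dnmt1*-WT and 975 FPKM in *Dnmt1*-KO. Because whole tissue was sequenced, fewer cells of a type and less RNA per cell cannot be told apart.

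Intermediate filaments are rope-like polymers that give cells their resistance to stretch. In visceral smooth muscle, desmin forms the main network, which runs between the dense bodies of the cytoplasm and the dense plaques of the membrane, while vimentin is typical of fibroblasts, endothelium and other mesenchymal cells. Synemin and nestin are large proteins that do not form filaments by themselves and join networks of desmin or vimentin, plectin ties the network to membrane and cytoskeleton, alpha B-crystallin is a small heat shock protein that keeps desmin from aggregating, and A-type lamins line the inner side of the nuclear envelope.

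DNMT1 copies methylation at CpG dinucleotides when DNA is replicated. The stretch of 250 bases before the RefSeq start is shown with its CpG marked for *Des* and *Synm*, both lower in *Dnmt1*-KO, and for *Nes*, the member with the highest ratio of *Dnmt1*-KO to *Dnmt1*-WT. The sequences are from RefSeq on GRCm38.p6, written 5′ to 3′ on the strand of the gene, and capitals mark each CpG.
Des, chr1:75360042-75360291, plus strand: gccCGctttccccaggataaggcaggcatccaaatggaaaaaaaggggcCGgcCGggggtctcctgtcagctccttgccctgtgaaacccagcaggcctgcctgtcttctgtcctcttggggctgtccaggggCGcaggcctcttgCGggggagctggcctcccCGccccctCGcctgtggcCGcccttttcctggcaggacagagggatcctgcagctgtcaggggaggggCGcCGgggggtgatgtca
Synm, chr7:67759743-67759992, minus strand: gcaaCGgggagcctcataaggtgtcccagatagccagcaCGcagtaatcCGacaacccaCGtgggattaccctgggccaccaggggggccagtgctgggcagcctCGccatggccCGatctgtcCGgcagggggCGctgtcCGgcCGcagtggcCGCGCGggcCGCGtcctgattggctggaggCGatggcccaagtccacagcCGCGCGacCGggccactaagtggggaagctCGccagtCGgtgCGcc
Nes, chr3:87970843-87971092, plus strand: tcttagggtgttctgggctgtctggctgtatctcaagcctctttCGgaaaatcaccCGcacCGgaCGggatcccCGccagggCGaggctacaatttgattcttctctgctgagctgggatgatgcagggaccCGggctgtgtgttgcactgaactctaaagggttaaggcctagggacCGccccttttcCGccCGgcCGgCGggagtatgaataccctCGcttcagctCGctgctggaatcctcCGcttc
The *Synm* window held 23 CpG, more than 86.7% of the 32851 windows of this length in the RefSeq table had. For *Nes* the number was 15, more than in 72.7% of windows, and for *Des* it was 10, more than in 62.2%, against a median of 6 over all windows. The windows of the other members in the RefSeq table, not shown, held 8 CpG for *Vim*, more than 57% of windows, and 1 and 4 for the starts of *Lmna*, more than 7.87% and 37.8%. In the GENCODE M21 annotation, all 250 bases of each *Lmna* window lie inside the *Lmna* gene. Neither *Lmna* window is therefore the stretch before the annotated 5′ end of the gene. In the last 100 bases before the start there were 13 CpG in *Synm*, 8 in *Nes* and 5 in *Des*. Methylation of these CpG was not analysed here.

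Both strands of these windows were searched for letters typical of muscle and general promoters. The CArG box, the sequence bound by SRF, was in 1.47% of all windows and in none of these members' windows. CANNTG, the E-box letters, began 220 and 36 bases before the *Des* start and 193 bases before the *Synm* start, and was in 66.2% of all windows. GGGCGG, the core letters of GC boxes, began 87 and 69 bases before the *Des* start and 73 and 62 bases before the *Nes* start. It also began 52 bases before a *Lmna* start that lies inside the annotated gene, and was in 32.7% of all windows. TATAAA, also searched for, began 32 bases before the *Vim* start and was in 12.4% of all windows. In the GENCODE release M21 annotation of GRCm38, all 250 bases of the *Synm* window also lie in an exon of *Gm45102*, a transcript still to be tested by experiment, and in the gene *Ttc23*, both on the opposite strand. The last 15 bases of the *Nes* window lie in an exon of a *Nes* transcript with a retained intron, and no annotated gene overlaps the *Des* window.

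The direction of the 7 genes was mixed. *Synm* and *Des* were lower in *Dnmt1*-KO, *Nes* and *Vim* were higher, and *Plec*, *Cryab* and *Lmna* were closest to a ratio of 1. Of the 7, 5 differed by less than 1.5-fold, *Des* and *Vim* among them. A ratio of 2 or more was reached by 0 of the 7, where 11.8% of the 16102 genes above 0 in both libraries reached it. A ratio of 0.5 or less was found for 1 of the 7, *Synm*, beside 4.98% of all genes. All 7 members reached 10 FPKM in at least 1 library, and of the 7054 genes that did so, 5.20% had a ratio of 2 or more and 2.93% one of 0.5 or less. With a fold of 1.5, *Nes* was the only member higher, beside 11.2% of these 7054 genes and 19.7% of the 16102, and *Synm* the only one lower, beside 10.3% and 12.6%. *Nes* is among the 7054 genes through its level in *Dnmt1*-KO. Of the 7 members, 4 had a ratio above 1 and 3 below, as compared to 47.1% and 52.9% of the 7054 genes. With 3 of 5 scalings *Cryab* fell below 1, which gave 3 above and 4 below. The median log2 ratio of the members, with 0.1 added to each FPKM, was 0.00, and that of the 7054 genes, without addition, was -0.03. Summed over the members, the level was 2392.43 FPKM in *Dnmt1*-WT and 2158.86 FPKM in *Dnmt1*-KO, a ratio of 0.902.

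**Figure D1:**
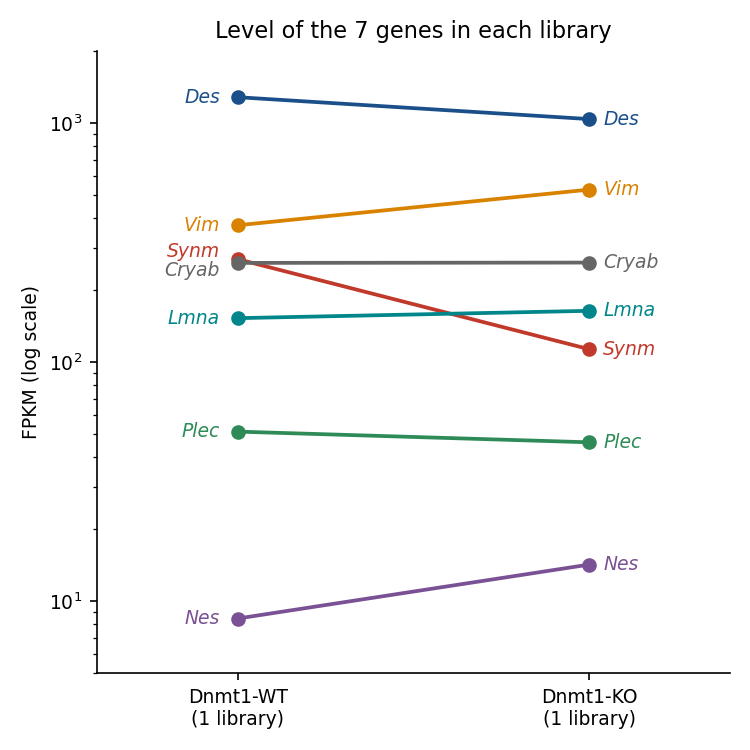
Level in FPKM (log axis) of the 7 genes in the *Dnmt1*-WT and the *Dnmt1*-KO library, with 1 point per library joined by a line for each gene. *Synm* lies above *Cryab* and *Lmna* in *Dnmt1*-WT and below both in *Dnmt1*-KO, *Vim* and *Nes* are higher in *Dnmt1*-KO, and the lines of *Cryab*, *Lmna* and *Plec* are nearly flat.

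*Des*, which encodes desmin, was the most abundant member in both libraries. It was at 1279.03 FPKM in *Dnmt1*-WT and at 1036.06 FPKM in *Dnmt1*-KO, a ratio of 0.810 or 19.0% lower. In the order of all genes it stood in place 22 in *Dnmt1*-WT and in place 58 in *Dnmt1*-KO. A lower ratio was found for 25.7% of the 7054 genes, so that the ratio of *Des* lay well inside the range of abundant genes. The gene lies on the plus strand of chromosome 1 of GRCm38 from 75360329 to 75368579 and has a transcript of 9 exons and 3028 bases. The antisense gene *Gm15179*, which shares 220 exon bases with *Des*, was listed at 0 in *Dnmt1*-WT and at 0.15 FPKM in *Dnmt1*-KO.

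The 3 genes whose pair of levels was nearest to that of *Des* were *Actg1*, *Cox4i1* and *Cox6c*. The measure was the straight-line distance between log2(FPKM + 0.1) in the 2 libraries, and it was 0.137, 0.188 and 0.222. *Actg1*, a non-muscle actin, went from 1182.96 to 1093.31 FPKM. With only 2 libraries, such a likeness says no more than that a pair of levels is similar.

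*Synm*, which encodes synemin, had the lowest ratio of the members. Its level was 269.05 FPKM in *Dnmt1*-WT and 113.07 FPKM in *Dnmt1*-KO, a ratio of 0.420 or 58.0% lower. A lower ratio was found for 102 of the 7054 genes, or 1.45%. From the third most abundant member in *Dnmt1*-WT, just above *Cryab*, it became the fifth in *Dnmt1*-KO, below *Lmna*. The table lists 4 transcript variants of *Synm* in each library. The gene lies on the minus strand of chromosome 7 from 67730160 to 67759742, with a transcript of 4 exons and 7818 bases.

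Long transcripts had lower ratios in this pair of libraries, and *Synm* is long. When genes at 1 FPKM or more in each library were put in 10 classes by transcript length, the class of the longest had a median log2 ratio of -0.25 and that of the shortest 0.22. After log2 ratios were centred within such classes of transcript length, the ratio of *Synm* was 0.501, just short of halved. The part of transcript length in the lower level of *Synm* was not tested further. Ratios also rose with GC content, from a median log2 ratio of -0.35 in the lowest of 10 classes to 0.18 in the highest. Centred on GC content, the ratio was 0.421 for *Synm*, 0.726 for *Des* and 1.33 for *Vim*. Of the exon bases of *Synm*, 84 are shared with *Ttc23* and 426 with *Gm45102*, both on the opposite strand. *Ttc23* was at 9.85 and 6.91 FPKM, far below *Synm* in both libraries.

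*Vim*, which encodes vimentin, was the second most abundant member in both libraries and was higher in *Dnmt1*-KO. It went from 372.8 to 525.48 FPKM, a ratio of 1.41. A higher ratio was found for 13.9% of the 7054 genes. The gene lies on the plus strand of chromosome 2 from 13573927 to 13582826, and no other annotated gene overlaps it. The 3 genes nearest to it in the pair of levels, by the same distance as for *Des*, were *Sod1* (0.040), *Rpl10a* (0.053) and *Rps27a* (0.092), the first an antioxidant enzyme and the others ribosomal protein genes. The window before the *Vim* start is part of an annotated leader of the transcript and is not shown.

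*Nes*, which encodes nestin, a filament protein of progenitor cells, glia and young endothelium, was the least abundant member in both libraries and had the highest ratio. It was at 8.46 FPKM in *Dnmt1*-WT and 14.22 FPKM in *Dnmt1*-KO, a ratio of 1.68. A higher ratio was found for 574 of the 7054 genes, or 8.14%. It passed the level of 10 FPKM in *Dnmt1*-KO only. Centred on transcript length, the ratio was 1.94, and centred on GC content it was 1.55. The gene lies on the plus strand of chromosome 3 from 87971078 to 87980451 and has a transcript of 4 exons and 6126 bases.

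**Figure D2:**
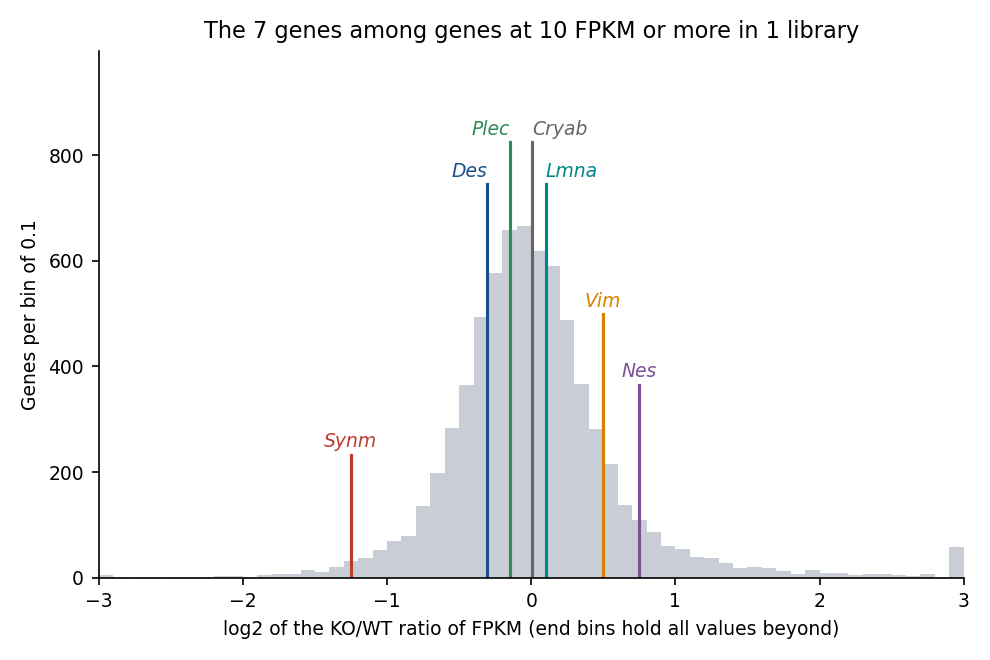
Number of genes in each bin of 0.1 of the log2 ratio of *Dnmt1*-KO to *Dnmt1*-WT (grey) for the 7054 genes with at least 10 FPKM in 1 library, with the 7 members as lines whose height has no meaning. *Synm*, at -1.25, lies in the lower tail, *Nes*, at 0.75, and *Vim*, at 0.50, lie on the upper shoulder, and the other 4 lie near the centre.

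Because *Des* and *Synm* were lower and *Vim* and *Nes* higher, the proportions within the filament system differed more than its total. The sum over 12 genes of cytoplasmic intermediate filaments outside the keratins was 2108.14 FPKM in *Dnmt1*-WT and 1935.87 FPKM in *Dnmt1*-KO, a ratio of 0.918. *Des* made up 60.7% of this sum in *Dnmt1*-WT and 53.5% in *Dnmt1*-KO, and *Synm* 12.8% and 5.84%. The share of *Vim* was 17.7% in *Dnmt1*-WT and 27.1% in *Dnmt1*-KO, and that of *Nes* 0.401% and 0.735%. For each *Des* transcript by FPKM, there were 0.291 *Vim* transcripts in *Dnmt1*-WT and 0.507 in *Dnmt1*-KO. Synemin is incorporated into desmin filaments, and the level of *Synm* over that of *Des* was 0.210 in *Dnmt1*-WT and 0.109 in *Dnmt1*-KO. The shares and pair levels given here were not centred on transcript length. That step moved the ratio of *Synm* from 0.420 to 0.501 and left that of *Des* at 0.81. The level of *Nes* over that of *Vim*, its usual partner, was closer between the libraries, at 0.0227 and 0.0271.

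**Figure D3:**
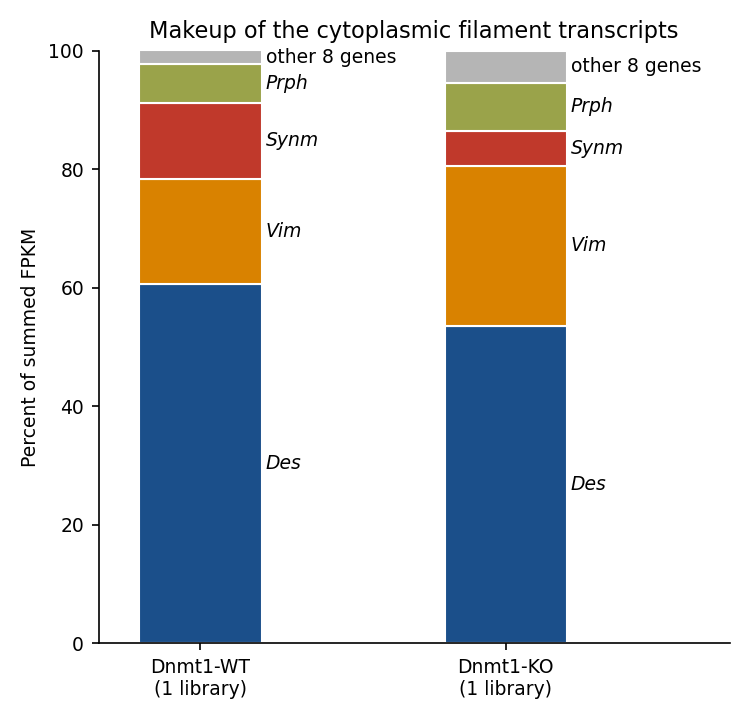
Share of *Des*, *Vim*, *Synm*, *Prph* and the other 8 genes together (grey, *Nes* among them) in the summed FPKM of cytoplasmic intermediate filament genes, as percent of the sum in each library. *Des* is the largest share in both bars, *Vim* is 27.1% in *Dnmt1*-KO and 17.7% in *Dnmt1*-WT, and *Synm* is 5.84% in *Dnmt1*-KO and 12.8% in *Dnmt1*-WT.

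Of the other 8 genes on that list, none is a muscle filament. *Gfap*, the filament of glia, had the highest ratio on the list, from 4.78 to 35.36 FPKM or 7.40. Among the neuronal filaments, *Nefm* went from 4.07 to 11.76 FPKM, a ratio of 2.89, and *Nefl* from 13.42 to 21.33 FPKM, a ratio of 1.59. *Prph*, peripherin, the most abundant of the neuronal filaments, went from 136.82 to 158.83 FPKM, while *Nefh* and *Ina* had ratios of 1.11 and 0.977. The lens filament genes *Bfsp1* and *Bfsp2* were near the lower end of the scale, and *Bfsp2* was at 0.18 FPKM in *Dnmt1*-WT and listed at 0 in *Dnmt1*-KO. Of the 11 genes above 0 in both libraries, 2 at least doubled and 1, *Synm*, was at most halved, and the median log2 ratio over all 12, with 0.1 added to each FPKM, was 0.30.

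Other markers of glia and neurons had ratios closer to 1 than *Gfap*. Of 7 enteric glia genes, *Gfap* included, 6 had a ratio above 1 and 2 at least doubled. The glial transcription factor *Sox10* went from 25.16 to 27.88 FPKM and *S100b*, a calcium-binding protein of glia, from 12.65 to 13.62 FPKM. None of the 7 enteric neuron genes reached a ratio of 1.5 in either direction, with ratios between 0.835 and 1.42. Neither list had a marker at 0 in either library.

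The simple keratins, the filaments of epithelium and mesothelium, were higher for 4 of 5 genes, and 2 of them, *Krt8* (24.61 and 57.53 FPKM) and *Krt18* (17.75 and 38.1 FPKM), at least doubled. With the keratins added to the pool, the sums of both libraries were nearly equal, at 2285.96 and 2279.68 FPKM.

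*Plec* encodes plectin, a very large linker, and had a similar level in both libraries. It was at 51.15 FPKM in *Dnmt1*-WT and at 46.14 FPKM in *Dnmt1*-KO, a ratio of 0.902. After centring on transcript length the ratio was 1.07, so the direction of *Plec* depends on this step. Its transcript of 15455 bases and 33 exons is the longest of the members, and the gene lies on the minus strand of chromosome 15 from 76170974 to 76232574. The table lists 18 transcript variants of *Plec* in *Dnmt1*-WT and 16 in *Dnmt1*-KO, the highest number for any gene above 0 in both libraries. Over all 16102 such genes, 2195 had fewer variants in *Dnmt1*-KO, 2011 had more and 11896 as many. Of the 18 genes with 10 or more variants in *Dnmt1*-WT, 14 had fewer in *Dnmt1*-KO, 1 had more and 3 had as many, but a class picked by a high number in *Dnmt1*-WT favours fewer in *Dnmt1*-KO. *Parp10*, on the same strand, shares 205 exon bases with *Plec* and was at 4.53 and 8.17 FPKM.

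The other plakins, the family of plectin, had ratios on both sides of 1. *Dst*, dystonin, went from 60.49 to 59.42 FPKM and *Macf1*, which links actin to microtubules, from 78.73 to 58.61 FPKM, a ratio of 0.744. *Dsp*, desmoplakin, which anchors filaments at desmosomes, went from 2.03 to 2.53 FPKM. Only *Eppk1*, epiplakin of epithelial cells, at least doubled, between the low levels of 0.14 and 0.86 FPKM, and 0 of 7 were at most halved.

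At dense plaques the filaments meet a protein scaffold that also holds actin, and 9 genes of this scaffold were listed. A ratio below 1 was found for 7 of them (5 when scaled to the upper quartile), and the median log2 ratio was -0.26. Among all genes a ratio below 1 was found for 49.1% of the 16102 above 0 in both libraries. It was found for 52.9% of the 7054 genes, which do not include *Itgb4*. *Dmd*, dystrophin, to which synemin binds, was at 14.08 FPKM in *Dnmt1*-WT and 6.53 FPKM in *Dnmt1*-KO, a ratio of 0.464, the one gene of this list that was at most halved. The level of *Synm* over that of *Dmd* was 19.1 in *Dnmt1*-WT and 17.3 in *Dnmt1*-KO. *Vcl*, vinculin, went from 139.2 to 90.28 FPKM and *Flna*, filamin A, from 1204.72 to 770.4 FPKM, with ratios of 0.649 and 0.639. *Utrn*, the relative of dystrophin, went from 17.95 to 17.29 FPKM. Higher values in *Dnmt1*-KO were found for *Actn4* (1.44) and *Itgb4* (1.59), an integrin subunit of epithelial cells that binds plectin.

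*Cryab*, which encodes alpha B-crystallin, was at the same level in both libraries, 259.5 FPKM in *Dnmt1*-WT and 260.28 FPKM in *Dnmt1*-KO, a ratio of 1.003. Its direction is not fixed, since 5 of 10 alternatives of scaling, pseudocount or centring put it below 1, with ratios between 0.862 and 1.05 over all 10. The gene lies on the plus strand of chromosome 9 from 50751325 to 50756636 and shares 252 exon bases, or 17.0% of its own, with *Hspb2* on the opposite strand. *Hspb2* was at 51.15 and 39.55 FPKM, and the sources used here do not say whether counting used the strand.

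The small heat shock proteins and cochaperones that act on filaments had ratios on both sides of 1. *Hspb1*, which binds filaments under stress, went from 324.58 to 691.83 FPKM, a ratio of 2.13, and *Hspb7*, abundant in heart muscle, from 44.94 to 99.29 FPKM, a ratio of 2.21. Dividing by the FPKM sum put *Hspb1* at 1.99. *Hspb6*, typical of muscle, was lower, with 284.21 FPKM in *Dnmt1*-WT against 197.3 in *Dnmt1*-KO, as was *Hspb8*, with 150.34 against 105.28. *Bag3*, the partner of HSPB8 in the clearance of damaged filament proteins, went from 57.5 to 55.92 FPKM. In *Dnmt1*-WT, *Hspb1* was 1.25 times as abundant as *Cryab*, and in *Dnmt1*-KO 2.66 times. Of the 8 listed genes above 0 in both libraries, 2 had a ratio of 2 or more and 0 one of 0.5 or less, while *Hspb3* was at 0.09 FPKM in *Dnmt1*-WT and listed at 0 in *Dnmt1*-KO.

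*Lmna*, which encodes lamins A and C, was at 152.44 FPKM in *Dnmt1*-WT and 163.61 FPKM in *Dnmt1*-KO, a ratio of 1.07, and centring on GC content put it at 0.946. It stood in place 404 of all genes in *Dnmt1*-WT and in place 403 in *Dnmt1*-KO. The table lists 4 variants in *Dnmt1*-WT and 3 in *Dnmt1*-KO without naming them. Of the 1099 genes with 4 variants in *Dnmt1*-WT, a class picked in the same way, 431 had fewer in *Dnmt1*-KO, 148 had more and 520 had as many. Levels of lamin A and lamin C apart were not analysed here. The gene lies on the minus strand of chromosome 3 from 88480147 to 88509956.

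The B-type lamins, which stay farnesylated and are found in dividing as well as resting cells, had higher ratios than *Lmna*. *Lmnb1* went from 13.54 to 19.9 FPKM and *Lmnb2* from 5.17 to 7.05 FPKM, and the level of *Lmna* over that of *Lmnb1* was 11.3 in *Dnmt1*-WT and 8.22 in *Dnmt1*-KO. Genes of dividing cells were higher beside them, with all 6 at a ratio between 1.56 and 2.66, and their part in the result was not tested. Of 14 genes of the lamina and nuclear envelope, 1 at least doubled, *Syne3*, from 0.84 to 2.22 FPKM, and 0 were at most halved. *Syne1*, nesprin-1, which links the nucleus to the cytoskeleton, went from 23.27 to 15.03 FPKM, a ratio of 0.646. *Emd*, emerin, which binds lamin A, went from 71.04 to 84.3 FPKM. The 5 genes that process prelamin A had ratios between 0.927 and 1.14, 4 of them above 1 (1 when divided by the FPKM sum), among them *Zmpste24*, the protease that releases mature lamin A, with 15.29 and 15.7 FPKM.

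**Figure D4:**
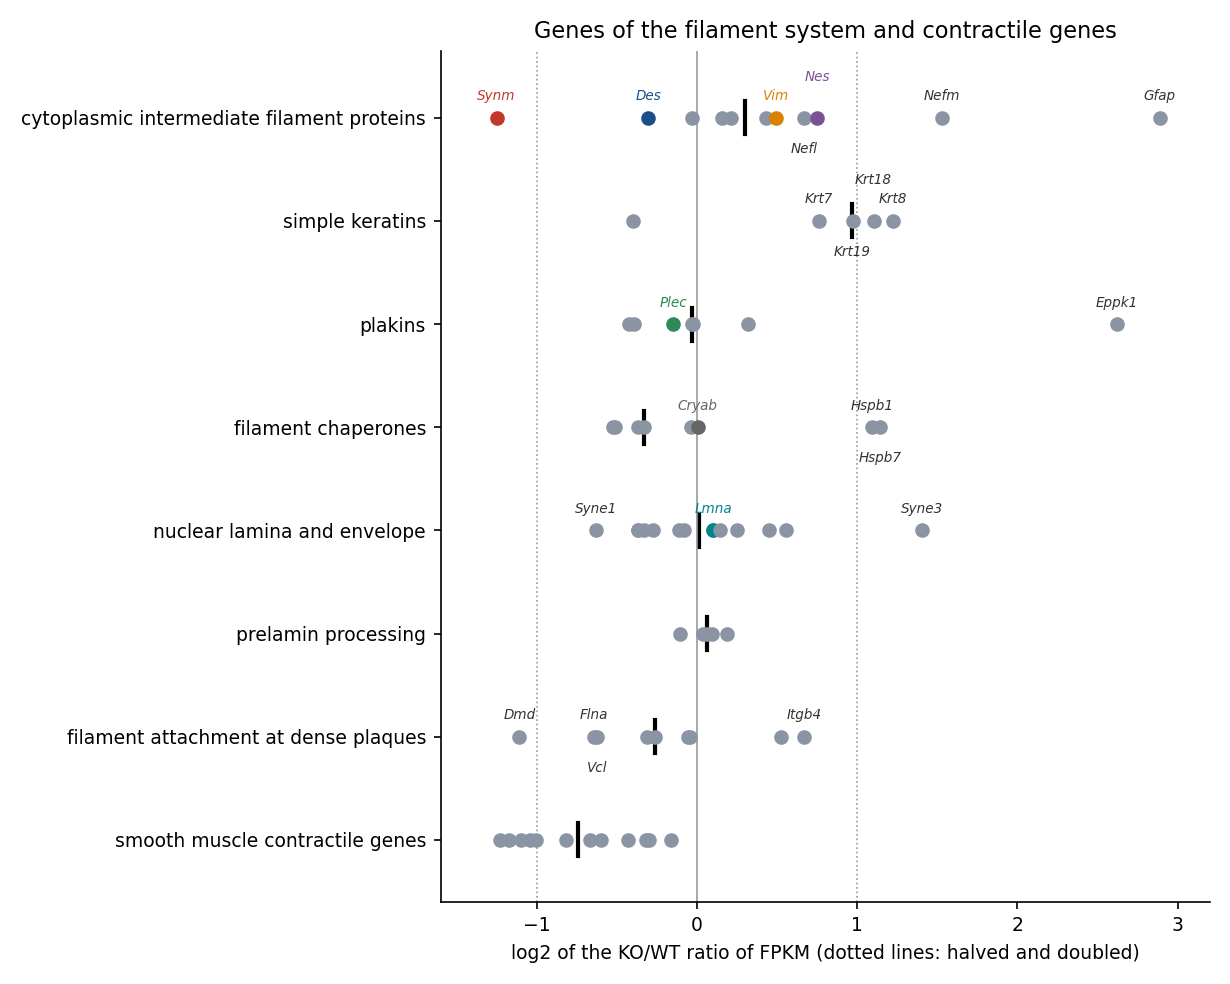
Log2 ratio of *Dnmt1*-KO to *Dnmt1*-WT for each gene of 8 lists, with 1 point per gene, the members in colour, the list median as a black bar and names for members and for genes that differ at least 1.5-fold outside the contractile list. *Synm*, at -1.25, lies at the lower end of the contractile genes, which are all below 0, while *Des*, at -0.30, lies near their upper end, and genes listed at 0 in 1 library have no point.

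All 12 contractile genes had a ratio below 1 with every scaling, 5 were at most halved (3 when scaled to the upper quartile and 2 when centred on transcript length), and their geometric mean was 1620 FPKM in *Dnmt1*-WT and 975 FPKM in *Dnmt1*-KO, a ratio of 0.60. *Des* came to 78.7% of this mean for *Dnmt1*-WT and to 106% for *Dnmt1*-KO, so it was lower by less than this mean. *Synm* came to 16.6% of it for *Dnmt1*-WT and to 11.6% for *Dnmt1*-KO. With each contractile gene alone as the reference, *Synm* had relative ratios between 0.471 and 0.983, the latter against *Smtn*, smoothelin. With all ratios centred on transcript length, that of *Synm* to the contractile mean was 0.829, and it was above 1 against *Smtn* (1.13) and *Tpm2* (1.03) and below 1 against the other 10. The direction of *Des* depended on the reference gene for a few of them. Its relative ratio was above 1 for 10 of the 12 and reached 1.90 against *Smtn*, but it was 1.09 against *Acta2*, smooth muscle alpha actin, 1.01 against *Tagln*, 0.999 against *Actg2*, the enteric actin, and 0.908 against *Cnn1*, calponin. Centred on transcript length, it was above 1 for 11 of the 12, with 1.09 against *Actg2* and 0.925 against *Cnn1*. The comparison with contractile genes was not centred on GC content. *Vim* was at 22.9% of the contractile mean in *Dnmt1*-WT and 53.9% in *Dnmt1*-KO, and *Cryab* at 16.0% and 26.7%.

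*Vim* and *Nes* are expressed by cells of the wall other than muscle, and markers of several of these cells were higher in *Dnmt1*-KO. Of 8 fibroblast genes, 6 had a ratio above 1 and 2 at least doubled, with a summed level of 3320 FPKM in *Dnmt1*-WT and 5120 FPKM in *Dnmt1*-KO. *Col1a1*, a chain of type I collagen, went from 700.41 to 1517.78 FPKM, whereas *Pdgfra* went from 68.95 to 40.72 FPKM. All 7 endothelial genes were higher, between 1.77 and 5.02 times, with a summed level of 51.5 and 133 FPKM. *Pecam1*, the vessel marker CD31, went from 15.76 to 38.84 FPKM. The 6 leukocyte genes had ratios between 2.43 and 5.04 and a summed level of 25.4 and 82.9 FPKM, and the 7 listed macrophage genes ratios between 1.77 and 4.20, with sums of 139 and 493 FPKM. No marker of these lists was at 0 in either library. The part of these cells in the levels of *Vim* and *Nes* was not tested.

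Other markers that can travel with the filament genes were uneven. Pericytes and vascular muscle can also express desmin, and of the 5 pericyte markers 4 had a ratio below 1. *Rgs5*, at 434.65 and 91.95 FPKM, had the lowest ratio, 0.212. The ratios of *Abcc9*, *Kcnj8* and *Cspg4* were 0.424, 0.748 and 0.865, and that of *Pdgfrb* was 1.69. The 5 genes of the interstitial cells of Cajal, the pacemakers of the gut, had ratios between 0.579 and 0.978, and 4 of them stayed below 1 when scaled to the upper quartile. The 6 mesothelial genes lay between 0.893 and 1.96, with *Krt19* highest. Skeletal muscle also expresses *Des*, and of its 7 listed markers 5 had a ratio above 1 and 4 at least doubled, with summed levels of 106 and 65.5 FPKM. Of that sum *Ckm*, muscle creatine kinase, made up 96.73 and 41.41 FPKM, while *Acta1*, skeletal alpha actin, was at 5.17 and 12.22 FPKM, *Tnnt3* at 2.35 and 8.57 FPKM and the other 4 below 2 FPKM in both libraries. Of 6 enterocyte genes, 5 had a ratio above 1, and *Epcam*, an epithelial surface protein, went from 7.3 to 13.95 FPKM beside the higher keratins. The sixth, *Sis*, went the other way, from 1.93 to 0.51 FPKM, a ratio of 0.264. All 6 adipocyte genes were higher in *Dnmt1*-KO, *Lep* from a value listed at 0 to 0.2 FPKM, with summed levels of 108 and 1170 FPKM. In these sums *Fabp4* made up 103.72 and 874.84 FPKM, a ratio of 8.43. *Adipoq*, *Cfd*, *Plin1* and *Retn*, at 2.61 FPKM or less in *Dnmt1*-WT, had ratios of 55, 70, 70.7 and 133. The part of these cells in the result was not tested.

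**Figure D5:**
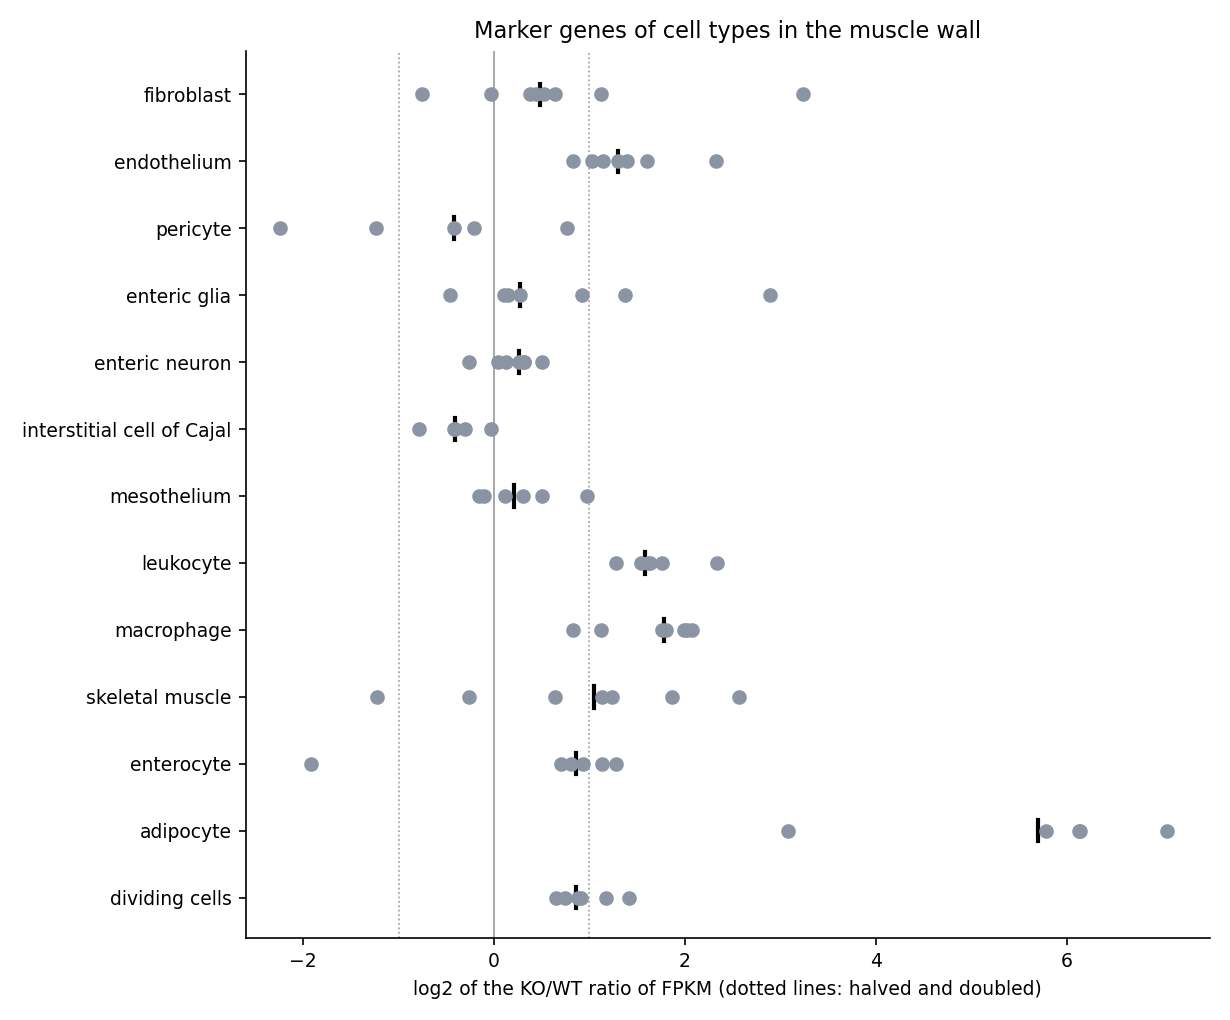
Log2 ratio of *Dnmt1*-KO to *Dnmt1*-WT for marker genes of 13 cell types or states, with 1 point per gene and the list median as a black bar. Endothelial, leukocyte, macrophage, adipocyte and dividing-cell genes lie to the right of 0. The medians are 1.30, 1.58, 1.78, 5.70 and 0.86 in that order. Markers of interstitial cells of Cajal lie at or left of 0, and *Lep*, listed at 0 in *Dnmt1*-WT, has no point.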

How the data were processed

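mRNA of jejunal tunica muscularis was measured in 1 library per genotype, from TruSeq RNA libraries. The deposited values are FPKM per gene symbol, and the submitters' processing notes name TopHat 1.4.1, Cufflinks 2.0.2 and mm10. Per the file headers, the table also counts transcript variants by library and gives a ratio by the authors, which was not used. The number of value columns without a sample was 0. Read counts per gene are not given in the sources used here, so no interval was computed, and whether counting used the strand is not stated. Genotypes came from the sample labels.

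Ratios are plain ratios of FPKM without rescaling, and a gene was counted as changed at a ratio of 2 or more or 0.5 or less, with 1.5-fold as a second rule. List medians used log2(FPKM + 0.1), genes listed at 0 in 1 library included. With 1 library per genotype no test was made. Alternatives were 5 scalings between libraries, pseudocounts of 0.01, 0.1 and 1, and centring within 10 classes of transcript length or GC content. Scaled counts over lists and contractile references other than *Acta2* and *Myh11* or centred on length were added after seeing the data. Length and GC content came from the longest protein-coding transcript in GENCODE M21, in which 17204 symbols, or 94.7%, were found, and upstream sequence was in the RefSeq table for 5 of 7 members. Named genes were the members, *Dnmt1*, genes of the lists, overlapping genes (chosen after their values were seen) and the 3 genes nearest to *Des* and to *Vim*, without symbols starting with Mir, Snor, Scarna, Rn or Gm. Single values of some list genes are not reported here. The members and lists were chosen with earlier results of these data known. Fold counting at 2-fold was tested on simulated data with planted changes larger than 2-fold, after scaling between libraries. Calls near 2-fold or 1.5-fold, and calls without scaling, were not tested in this way. Python 3.11.15, numpy 2.4.6, pandas 2.3.3 and matplotlib 3.10.9 were used.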

Additional observations from a re-analysis of the deposited data

How the results depend on the processing

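No paired analysis was possible because each genotype has 1 library. Under 5 scalings, 3 pseudocounts and 2 centrings, *Des* stayed between 0.726 and 0.847, *Synm* between 0.392 and 0.501, *Vim* between 1.31 and 1.47 and *Nes* between 1.55 and 1.94. Centring on transcript length put *Synm* at 0.501 and left 0 members at most halved. A fold of 1.5 in place of 2 gave 1 member higher. *Cryab* passed to the other side of 1 in 5 of 10 alternatives, and *Plec* and *Lmna* in 1 each. The scalings moved all log2 ratios by between -0.10 and 0.06. The share of all genes at least doubled was 5.53% when each library had to reach 1 FPKM and 5.20% when 1 library had to reach 10 FPKM, and the share at most halved was 2.82% and 2.93%. The spread between mice within a genotype is unknown, and low values near 0.03 FPKM carry little weight.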
